A study of Mus musculus with 2 samples.

Results

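Interferon-stimulated genes are the genes that cells switch on after interferon binds its receptors. They were taken as 36 named genes of antiviral defence, interferon signalling and antigen presentation, and each was read from probe sets whose platform annotation gives that gene's symbol alone. Of the 36 genes, 34 had such a probe set, out of 18194 genes named in this way on the arrays. Ifi44 had none, and Isg15 was covered only by probe sets annotated with several symbols, so neither has a value here. The list holds 27 genes that are mainly targets of type I interferon (25 with a probe set) and 9 gamma-type genes, known best as targets of interferon gamma. Many genes of both kinds answer to either interferon.

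The RNA came from livers of male C57Bl/6J mice, 9 weeks old on arrival, in a feeding study of 112 days. All mice compared here had first been fed a diet depleted of n-3 polyunsaturated fatty acids, in which sunflower oil replaced soybean oil. For the last 10 days, the DEF/FOS mice stayed on that diet, with an n-6 to n-3 ratio of 127.2, and received 0.25 g per day of fructooligosaccharides (FOS), fermentable fibres, in their water. The DEF/CT mice were moved back in those days to the soybean oil diet, with a ratio of 6.9. The treatment protocol gives 8 mice for each group. Per the labels' protocols, RNA of 4 to 8 mice was pooled per group in equal amounts and each pool was hybridised to 1 array, so the spread between animals was not measured and no difference below carries a test or a p-value. Fibre and oil differed together between the pools and cannot be told apart. DEF/FOS and DEF/CT stand below for the arrays of these pools. The arrays differed in skeletal muscle markers, whose summed signal over 16 genes was 213.0 in DEF/FOS and 2994 in DEF/CT. What muscle RNA contributed to the signals of the interferon-stimulated genes was not tested. The series' title asks how a change of the gut microbiota bears on fatty liver under n-3 depletion.

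Type I interferons signal through a receptor pair and the kinases Jak1 and Tyk2 to a complex that includes Stat2 and Irf9 and binds the interferon-stimulated response element (ISRE) in promoters. Interferon gamma signals through another receptor pair, and its target promoters carry gamma-activated sites (GAS). Liver macrophages, endothelial cells and hepatocytes all carry such receptors, and many of these genes are transcribed at a basal level without infection.

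The core letters of the ISRE, which the list did not use, were found in fewer than all members but more often than among all genes. The 250 bases before the transcription start were searched in RefSeq promoters (GRCm38.p6) for GAAANNGAAA on either strand, which reads TTTCNNTTTC on the other one. The core was present for 12 of the 28 members with a promoter entry (42.9%) and for 3.46% of all 27025 genes with one. The GAS core TTCNNNGAA, which reads alike on both strands, was present for 8 of the 28 members (28.6%) and for 8.13% of all genes. A match of the ISRE core and one of the GAS core overlapped in 1 member window. By kind, 8 of 21 type I members and 4 of 7 gamma-type members held the ISRE core. Promoters of 4 members are printed because they hold the same core. By their brightest probe sets, Ifit3 and Oas1a had much the same signal in both pools, Gbp2 was lower in DEF/FOS and Igtp was higher. Each promoter is written in the direction of its gene, with the ISRE cores in capitals. The windows are chr19:34583279-34583528 (plus strand) for Ifit3, chr5:120907526-120907775 (minus strand) for Oas1a, chr3:142620413-142620662 (plus strand) for Gbp2 and chr11:58199306-58199555 (plus strand) for Igtp.
Ifit3: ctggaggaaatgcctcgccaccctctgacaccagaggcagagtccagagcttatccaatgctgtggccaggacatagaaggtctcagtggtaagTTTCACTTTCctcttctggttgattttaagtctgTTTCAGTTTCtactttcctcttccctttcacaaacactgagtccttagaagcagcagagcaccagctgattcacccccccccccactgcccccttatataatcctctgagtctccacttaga
Oas1a: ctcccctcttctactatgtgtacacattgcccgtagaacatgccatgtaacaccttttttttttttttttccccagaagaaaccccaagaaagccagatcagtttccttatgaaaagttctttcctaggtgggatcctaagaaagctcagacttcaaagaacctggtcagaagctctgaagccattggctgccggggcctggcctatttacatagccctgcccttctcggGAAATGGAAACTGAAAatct
Gbp2: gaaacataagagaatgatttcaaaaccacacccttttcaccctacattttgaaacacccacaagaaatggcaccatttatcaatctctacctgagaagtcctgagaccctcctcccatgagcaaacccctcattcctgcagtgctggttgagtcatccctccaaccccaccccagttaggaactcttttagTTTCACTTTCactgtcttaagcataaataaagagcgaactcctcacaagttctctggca
Igtp: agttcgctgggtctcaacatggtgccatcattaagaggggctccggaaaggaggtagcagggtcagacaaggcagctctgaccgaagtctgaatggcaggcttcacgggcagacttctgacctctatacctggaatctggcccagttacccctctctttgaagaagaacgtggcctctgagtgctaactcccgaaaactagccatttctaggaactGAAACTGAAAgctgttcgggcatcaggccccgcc

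Of the interferon-stimulated genes, 1 member was higher and 2 members were lower in DEF/FOS by 1.5-fold or more, near the shares of all genes. The higher one was Oas2, and the lower ones were Tap1 and Gbp2. These counts are over the 31 members above a signal floor of 19.4, the median over all probe sets that are not array controls. Mx1, Mx2 and Oas3 lay below it. Of all 11163 genes past this floor, 6.75% were higher in DEF/FOS by 1.5-fold or more and 7.82% were lower by as much, where 1 of 31 and 2 of 31 members were. At 2-fold, Oas2 alone was higher and 0 members were lower, against 1.74% and 2.19% of all genes.

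Differences are given as the log2 signal of the DEF/FOS pool minus that of the DEF/CT pool, centred on the median over all probe sets above the floor. The median of the members was -0.05, with quartiles of -0.24 and 0.03, and that of all genes was 0.00, with quartiles of -0.24 and 0.22. Of the 31 members, 22 were lower and 9 higher in DEF/FOS, where 5587 of all 11163 genes were lower and 5575 higher. In 22 of the 31 (71.0%) the difference was under 0.25 in either direction, as it was in 53.4% of all genes. Irf9 at -0.247 and Ddx58 at -0.238, both above the 75th percentile of signal, lay just inside this limit. With no centring they read -0.261 and -0.253, so fewer members were under it. The spread between probe sets of the same gene, which share the RNA and are no replicates, was an SD of 0.48 for genes between the floor and the 75th percentile of signal (84.3) and of 0.30 above it. Over the 11 members with several probe sets above the floor it was 0.25. Among the 20 members above the 75th percentile, 18 differed by less than 0.25, against 63.5% of all genes there. Among the 11 members between the floor and that percentile, 4 did (36.4%), against 37.9% of all genes there. Of these 11 members, 10 were lower in DEF/FOS and Oas2 was higher. Of all 4412 genes in that range, 2453 were lower. Among the 10 is Eif2ak2 at -0.01, whose other probe sets read 0.22 and 0.60. The median of the 11 members was -0.28, against -0.06 for all genes in that range.

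**Figure D1:**
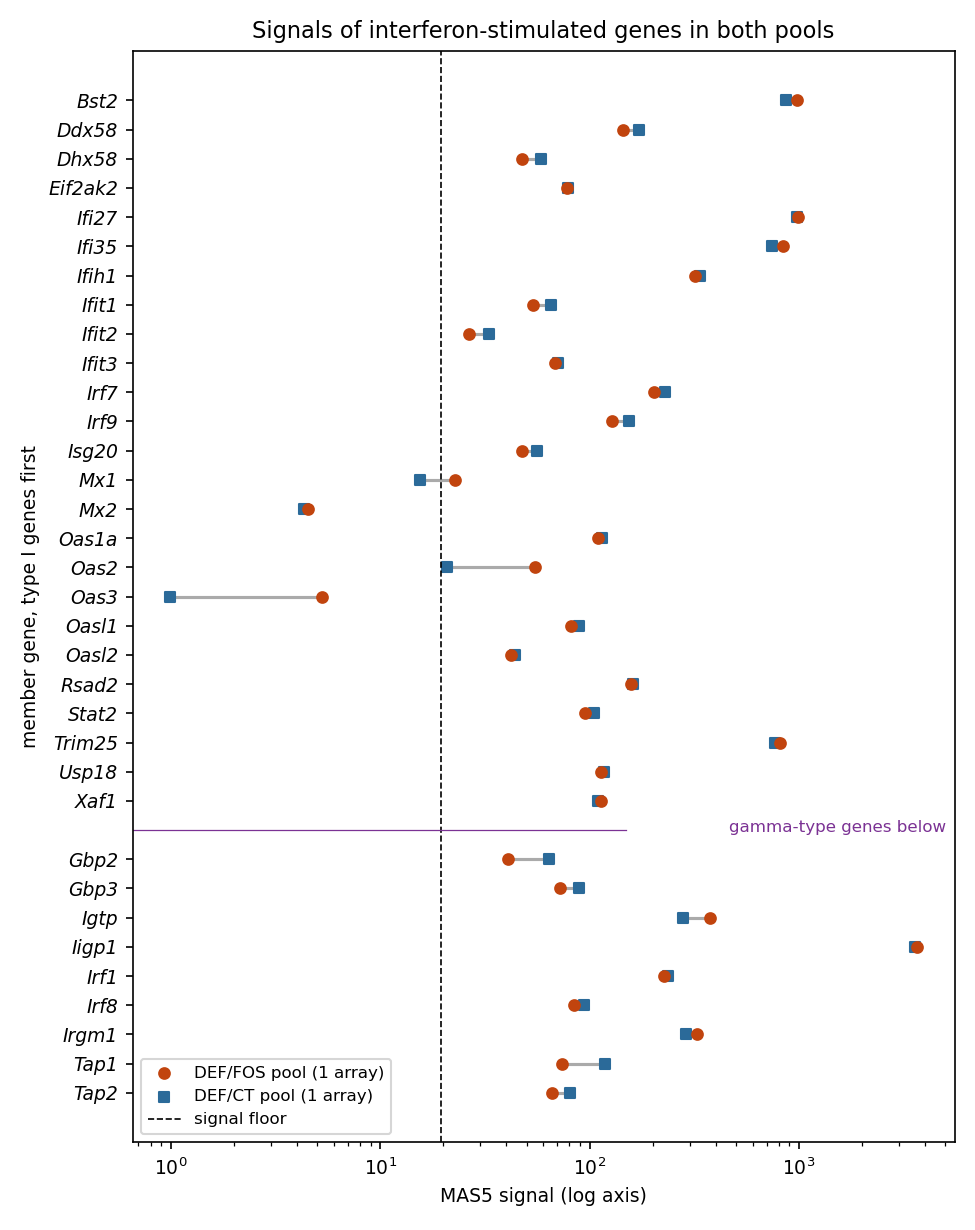
Signals of the 34 measured members (log axis; levels of different genes are not comparable) in DEF/FOS (circles) and the DEF/CT pool (squares), 1 array each, with the signal floor of 19.4 as a dashed line. The 2 signals of most members nearly coincide, and Oas2, Gbp2 and Tap1 are the members above the floor that are at least 1.5-fold apart.

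The RNA sensors of the list recognise viral RNA in the cytoplasm and trigger interferon production. Ifih1, which encodes MDA5, had a signal of 317.7 in DEF/FOS and 338.2 in DEF/CT, a difference of -0.08. Ddx58, which encodes RIG-I, had 144.3 and 172.0, a difference of -0.24, while its 3 probe sets ran from -0.34 to 0.29. Dhx58, which encodes the regulator LGP2, had 47.5 and 58.6, and both of its probe sets above the floor were lower in DEF/FOS, by -0.29 and -0.63. All 3 sensors were thus lower in DEF/FOS by their brightest probe set. Each difference was under the SD between probe sets over all genes (0.38). That of Dhx58 was past the SD over the members (0.25). Neither SD measures the spread between animals or arrays.

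The transcription factors that carry the signal were also slightly lower in DEF/FOS, all 5 of them. Stat2 and Irf9 are parts of the complex that binds the ISRE. Stat2 had signals of 95.0 and 105.1 in DEF/FOS and DEF/CT, in this order, a difference of -0.13, with -0.35 in its other probe set. Irf9 had 128.1 and 153.6, a difference of -0.25. Irf7, the factor that amplifies type I interferon transcription and is itself interferon-induced, had 202.5 and 229.8, a difference of -0.17. Irf1, an early target of interferon gamma, had 227.4 and 237.8, a difference of -0.05. Irf8, a factor of macrophages and dendritic cells, had 84.6 and 93.5, a difference of -0.13, with -0.21 in its other probe set. By their brightest probe sets, these factors differed by -0.25 to -0.05. All lay under the SD between probe sets over all genes (0.38), which does not measure the spread between animals or arrays.

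The Ifit proteins bind viral RNA and block its translation. Ifit1 had signals of 53.5 in DEF/FOS and 65.4 in DEF/CT, a difference of -0.28. Ifit2 had 26.4 and 33.1, a difference of -0.31. Ifit3 had 68.0 and 70.4, a difference of -0.04, and its promoter printed above holds the ISRE core in 2 places. The 3 genes had 1 probe set each and lie near each other in the assembly, Ifit2 and Ifit3 as direct neighbours among protein-coding genes.

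Oas2 was higher in DEF/FOS, and the other 3 members of its family above the floor differed by -0.12 to -0.05. The OAS enzymes sense double-stranded RNA and make short oligoadenylates that activate the nuclease RNase L. Oas2 (probe set 1425065_at) had a signal of 55.0 in DEF/FOS and 20.9 in DEF/CT, a difference of 1.41 or 2.66-fold. The DEF/CT signal was close to the floor, and no second probe set was available as a check. With an offset of 32 added to both signals the difference was 0.73, and above the 75th percentile of signal the gene was not counted. Oas1a had 110.1 and 114.8, a difference of -0.05. Oasl1 had 81.6 and 89.5, a difference of -0.12, and Oasl2 had 42.0 and 43.9, also a difference of -0.05. Oas3, the direct neighbour of Oas2 among protein-coding genes, had signals of 5.25 and 0.990, both below the floor, so no fold is given. Oas2 was thus the only 1 of the 4 OAS family members above the floor whose signal was higher in DEF/FOS. How far probe sets of the OAS, Ifit and Gbp families read related copies was not tested.

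The other antiviral effectors of the type I set differed by less than 0.25 in either direction by their brightest probe sets. Other probe sets of Rsad2 and Eif2ak2 went past this limit. Rsad2 encodes viperin, which blocks the replication of several viruses, and had 156.9 in DEF/FOS and 161.4 in DEF/CT by its brightest probe set, a difference of -0.03. Its other probe sets read -0.61 and -0.67, so the size of its difference depends on the probe set, and the median over its 3 probe sets was -0.61. Eif2ak2, which encodes the kinase PKR that halts translation on double-stranded RNA, had 78.0 and 79.1, a difference of -0.01, with 0.22 and 0.60 in its other probe sets. Bst2, which encodes tetherin that holds virions at the cell surface, had 973.7 and 864.7, a difference of 0.19. Isg20, an exonuclease, had 47.7 and 55.9, a difference of -0.22. Rsad2 and Eif2ak2 are the members in which another probe set went past 1.5-fold where the brightest did not, besides Dhx58.

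Ifi27 had signals of 984.6 and 983.6 in DEF/FOS and DEF/CT, in this order, a difference of 0.02. Ifi35 had 841.1 and 743.2, a difference of 0.19, and its 3 probe sets ran from 0.10 to 0.27. Xaf1, a pro-apoptotic factor, had 113.0 and 109.1, a difference of 0.07. Usp18, the protease that removes ISG15 from proteins and dampens receptor signalling, had 113.1 and 116.6, a difference of -0.03. Trim25, a ubiquitin ligase that activates RIG-I, had 810.8 and 768.0, a difference of 0.09, with -0.12 and -0.10 in its other probe sets. Each of these 5 genes differed by less than 0.25. Mx1, a GTPase that blocks influenza virus and is inactive in most laboratory strains, had signals of 22.7 and 15.5, and Mx2 had 4.52 and 4.34, with means below the floor.

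By their brightest probe sets, both members that were at least 1.5-fold lower, Tap1 and Gbp2, are gamma-type genes. Of all genes above the floor, 7.82% were lower by as much. With the median over probe sets, the type I gene Rsad2 took the place of Gbp2, so this depends on the probe set. Of the 9 gamma-type genes, 4 differed by less than 0.25, against 18 of the 22 type I genes above the floor and 53.4% of all genes. Tap1 and Tap2 form the transporter that carries peptides to MHC class I molecules. Tap1 (probe set 1416016_at) had a signal of 74.0 in DEF/FOS and 118.9 in DEF/CT, a difference of -0.67 or 1.59-fold lower. Its other 3 probe sets lay below the floor. Tap2 had 65.8 and 80.7, a difference of -0.28. Psmb8 and Psmb9, catalytic subunits of the immunoproteasome, lie beside Tap1 in the assembly. Psmb8 had 231.8 and 212.3, a difference of 0.14, with -0.60 in its other probe set, and Psmb9 had 138.6 and 159.8, a difference of -0.19. Of these 4 neighbours, Tap1 alone was 1.5-fold apart by its brightest probe set.

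The guanylate-binding proteins and the immunity-related GTPases attack the vacuoles of intracellular pathogens. Gbp2 (probe set 1418240_at) had a signal of 40.9 in DEF/FOS and 63.9 in DEF/CT, a difference of -0.63 or 1.55-fold lower, while its other probe set read 0.00. Gbp3 had 71.9 and 88.9, a difference of -0.29. Of the immunity-related GTPases on the list, Igtp (probe set 1417141_at) had 373.9 and 278.8, a difference of 0.44 or 1.35-fold higher. Irgm1 had 325.2 and 290.2, a difference of 0.18. Iigp1 had 3677 and 3583, a difference of 0.05, with 0.07 in its other probe set. The 3 immunity-related GTPases of the list were thus higher in DEF/FOS, and its 2 guanylate-binding proteins were lower by their brightest probe set. The same did not hold for relatives outside the list, named after their values were seen. The immunity-related GTPases Irgm2 and Ifi47 differed by -0.29 and -0.34, and the guanylate-binding proteins Gbp7 and Gbp8 by 0.23 and 0.50, with Gbp6 at -0.38. Igtp and Gbp2 both hold the ISRE core in the promoters printed above.

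**Figure D2:**
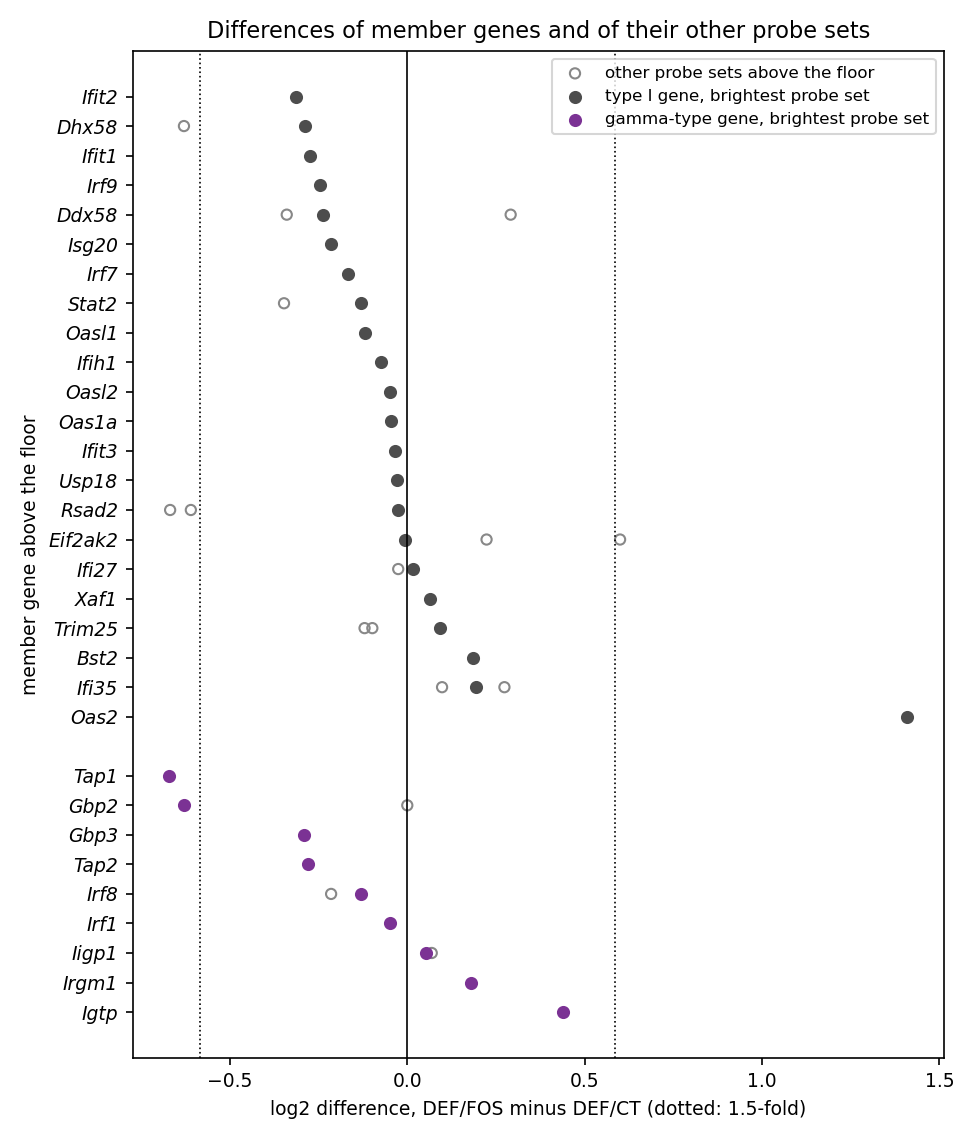
Log2 differences (DEF/FOS minus DEF/CT) of the 31 members above the floor by their brightest probe set (filled points) and by their other probe sets above the floor (open points), type I genes first and gamma-type genes after. Oas2 at 1.41 lies far to the right, Tap1 at -0.67 and Gbp2 at -0.63 lie past the dotted 1.5-fold line, and 5 of the 11 members with several probe sets have probe sets of both signs.

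Set against each other, the type I genes had a median difference of -0.05 over 22 members and the gamma-type genes one of -0.13 over 9 members, a gap of -0.08. The gap turned to 0.04 above the 75th percentile of signal and to 0.01 without probe sets whose names end in _s_at, _x_at or _a_at, so the order of the medians was not stable. The 10 members above the floor with the ISRE core had a median of -0.04, and the 15 whose promoter entry lacked it had one of -0.12.

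**Figure D3:**
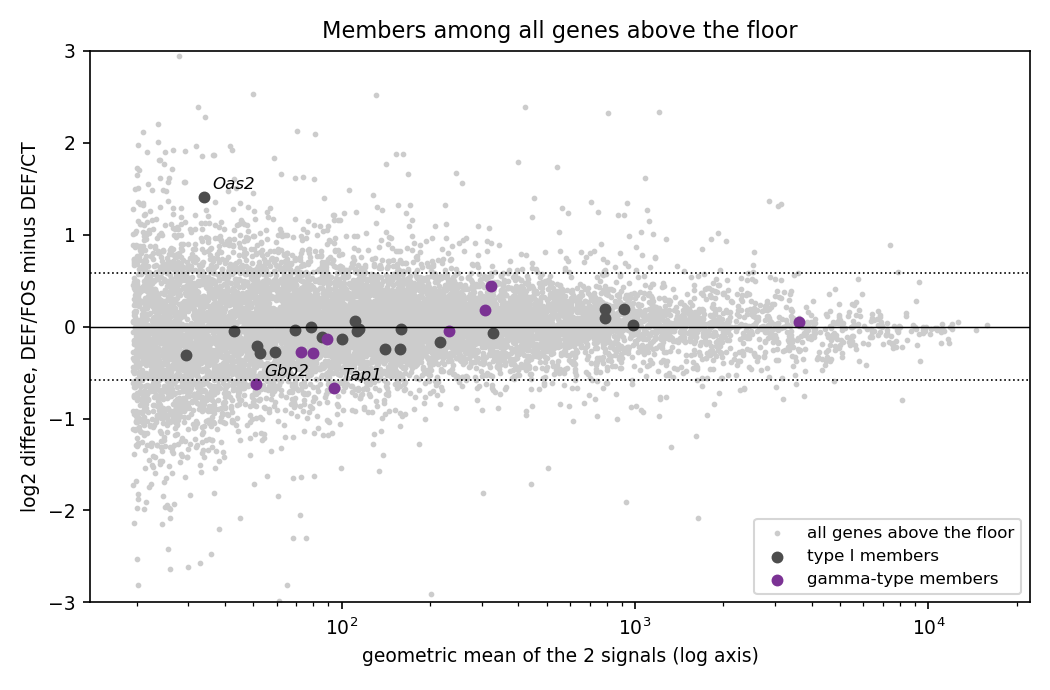
Log2 difference (DEF/FOS minus DEF/CT) against the geometric mean of both signals (log axis) for all 11163 genes above the floor (grey), with type I members in dark grey and gamma-type members in purple. Of 20 members past a signal of 84.3, 18 lie within 0.25 of 0, and of the 11 at lower signals 4 do, with Oas2 at 1.41; 13 genes beyond 3 in either direction are not drawn.

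The interferon receptors were compared next, since they decide which interferon a cell can read. Both chains of the interferon gamma receptor were higher in DEF/FOS. Ifngr1 had 129.5 against 73.3 in its only probe set, a difference of 0.84 or 1.78-fold. Ifngr2 had 85.7 against 59.1, a difference of 0.55, and its other probe set read 0.53. Among the type I receptor chains, Ifnar1 had 144.0 and 115.1, a difference of 0.34 with -0.21 in its other probe set, and Ifnar2 had 621.5 and 651.1, a difference of -0.05 with -0.36 and -0.38 in its other probe sets. The kinases Jak1 and Tyk2 differed by 0.14 and 0.10. Socs3, a feedback inhibitor of cytokine signalling, had 669.5 and 854.2, a difference of -0.34, in the same direction in its 3 probe sets. Of 13 receptor and JAK-STAT genes above the floor, Ifngr1 was at least 1.5-fold higher and 0 were lower, with a median of 0.10. Of all genes above the floor, 6.75% were higher and 7.82% lower by as much, so 1 of 13 is near the share of all genes.

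Most of the interferon genes themselves lay below the floor. Of the 9 ligand genes with a probe set of their own, 7 lay below it, among them Ifng at 0.539 and 10.1 and Ifnb1 at 13.6 and 16.1 in DEF/FOS and DEF/CT, in this order. Ifna1 had 19.7 and 39.5 and Ifna2 53.5 and 42.4, and as the interferon alpha genes are near-identical copies these readings are uncertain.

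Nucleic acid sensing genes had a median of 0.11 over 14 genes, and at 1.5-fold 1 of them was higher and 1 lower. These counts are near the shares of all genes, 6.75% higher and 7.82% lower. Tlr8, an endosomal receptor, had 31.4 in DEF/FOS and 15.6 in DEF/CT, at least 1.63-fold higher when set against the floor. Irf5, a factor downstream of these receptors, had 57.0 and 92.0, a difference of -0.68, with -0.17 in its other probe set. The adaptors Ticam1 and Mavs differed by -0.50 and -0.47, the latter with 0.08 in its other probe set.

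A further 41 interferon-stimulated genes above the floor, outside the list, had a median of 0.05, with 3 at least 1.5-fold higher and 2 lower. The shares of all genes were 6.75% higher and 7.82% lower. Cxcl10, a chemokine that draws T cells, had 57.6 in DEF/FOS and 31.4 in DEF/CT, a difference of 0.89 or 1.85-fold. Its relatives Cxcl9 and Cxcl11, named after their values were seen, differed by -0.16 and 0.43. Slfn4, a gene of myeloid cells, was at least 1.77-fold higher and Ifi204, a DNA sensor, at least 1.69-fold higher in DEF/FOS, both with a DEF/CT signal under the floor. Ddx60, a helicase, had 21.9 and 39.3, a difference of -0.83, and Slfn2, named after its values were seen, had 31.4 and 50.9, a difference of -0.68. Genes of MHC class I and the immunoproteasome had a median of -0.04 over 14 members with 0 past 1.5-fold in either direction. B2m, the shared light chain of class I molecules, had 7673 and 7940, a difference of -0.03. The folding proteins Pdia3 and Calr differed by -0.44 and -0.35, the proteasome activator gene Psme1 by 0.32 and the peptide-trimming enzyme Erap1 by 0.30, the last with -0.16 in its other probe set. MHC class II genes had a median of -0.07 over 5 members, from -0.23 for H2-DMa, with 0.17 in its other probe set, to 0.09 for H2-Ab1, with Cd74 and H2-Eb1 at -0.07.

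**Figure D4:**
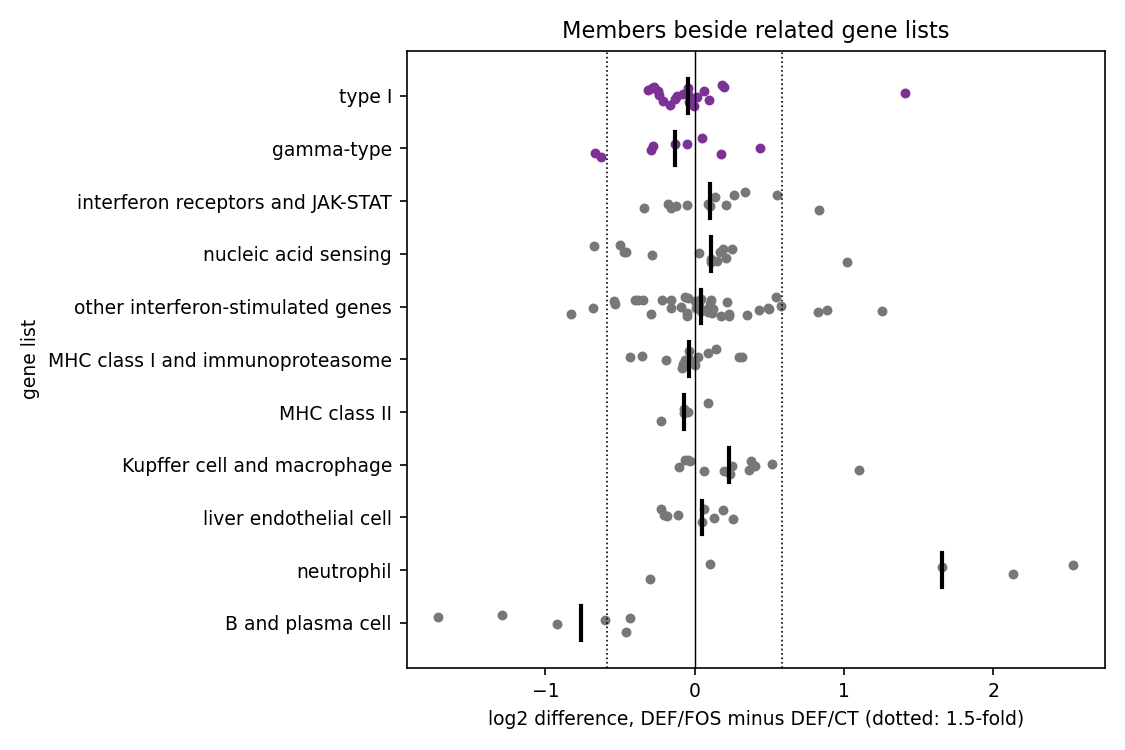
Log2 differences (DEF/FOS minus DEF/CT) of genes above the floor in the type I and gamma-type lists (purple) and in related lists and cell type marker lists (grey), 1 point a gene, with each list's median as a black bar and 1.5-fold as dotted lines. The medians of the type I and gamma-type lists, at -0.05 and -0.13, lie near 0, while those of the neutrophil list, at 1.66 over 5 genes with Ngp at 0.10 and Elane at -0.30, and of the B and plasma cell list, at -0.76, do not.

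The pools differed in markers of some other cells, and a lower signal cannot tell fewer cells of a type from less RNA per cell. Hepatocyte markers were level, with a median of -0.04 over 11 genes. For markers of Kupffer cells and other macrophages, all 14 named genes lay above the floor, the median difference was 0.23, and the summed signal was 5680 in DEF/FOS and 4925 in DEF/CT. Of these markers, 10 were higher in DEF/FOS, with Marco the furthest at 1.10. The other 4, Cd68, C1qb, C1qc and Mpeg1, were lower, by -0.10 to -0.03. Liver endothelial markers had a median of 0.05 over 9 genes. Of 13 named T and NK cell markers, 8 lay below the floor, Cd3d, Cd3e and Cd4 among them, and the summed signals were 227.6 and 226.6. Of 10 named dendritic cell markers, 4 lay below the floor, and the median of the other 6 was -0.24. The dendritic cell sums were 1246 and 1208 with Bst2, itself a member, and 272.5 and 343.1 without it. Batf3 and Cd209a, under the floor in DEF/FOS, counted as lower at 1.5-fold by their signals as deposited. Set against the floor, they were at least 1.54-fold and at least 1.38-fold lower, so Cd209a is not shown to pass 1.5-fold. The sums of the B and plasma cell markers were 413.8 and 1095, and those of the neutrophil markers 464.8 and 184.4. Ighm alone gave 243.5 and 808.8 of the B and plasma cell sums, and its 5 probe sets above the floor ran from -1.72 to 0.23. All 6 B and plasma cell markers above the floor were lower in DEF/FOS by their brightest probe set. The neutrophil sums rest on S100a8, S100a9 and Lcn2. The other 6 named neutrophil markers, of which 4 lay below the floor, summed to 89.0 and 94.6, with Ngp at 0.10 and Elane at -0.30. What these cells, or the muscle transcripts of DEF/CT, contribute to the differences of the members was not tested.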

How the data were processed

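The deposited values are signal intensities on a linear scale for 45101 probe sets on 2 arrays, made with MAS5 and GCOS per the submitters' processing notes, which give no version. The deposited intensity values share a scale: after trimming 2% at either end, both arrays had a mean of 100.0. Detection calls were not used here. The labels' protocols state that RNA was pooled within each group.

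Symbols came from the platform annotation: 34958 probe sets had 1 symbol, 932 had several and 9160 were not listed. For all 34 measured members the symbol matched RefSeq (GRCm38.p6) by Entrez identifier. With no offset, log2 differences were centred on their median over probe sets above the floor, which was -0.01. Each gene was read from its probe set of highest mean log2 signal. A signal below the floor was replaced by the floor in folds, which are then lower bounds. Differences, and counts at 1.5-fold and 2-fold, used the signals without this replacement. Of all genes, 754 were higher and 873 lower at 1.5-fold, and 715 and 795 with the replacement. Every member above the floor is named, and of each related list up to 4 genes of largest absolute difference and further genes by symbol, of which 1 is not reported here. The members and lists were chosen with earlier results of these data known. With 1 array per group no test was made, and the number of arrays limits the precision. The procedure was tested on simulated data, with noise set by hand below the spread between probe sets and with differences of 2-fold or more. That test cannot show how well differences as small as those of most members are resolved. Python 3.11.15, numpy 2.4.6 and pandas 2.3.3 were used. The 8 alternatives covered the floor, offset, normalization, centring and choice of probe sets.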

Additional observations from a re-analysis of the deposited data

How the results depend on the processing

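The counts of members rest on 3 genes, so single genes move them. With no floor, 2 members were at least 1.5-fold and 2 at least 2-fold higher in DEF/FOS, Oas3 being added at signals below the floor. With the floor at the 75th percentile, 0 were higher at 1.5-fold, 0 at 2-fold, and 1 was lower at 1.5-fold, because Oas2 and Gbp2 were left out. With an offset of 32, 0 were lower at 1.5-fold and 0 higher at 2-fold. With the median over probe sets the lower members were Rsad2 and Tap1 in place of Gbp2. The median of all members lay between -0.10 and -0.04 over the 8 alternatives. Of the 31 members above the floor, 22 were negative, or 23 under quantile normalization and with the median over probe sets. Over all genes, quantile normalization gave 799 higher and 795 lower at 1.5-fold (50.1% higher, against 46.3%), and the floor at the 75th percentile 53.5% higher. At 2-fold the share higher was 44.2%, 67.8% at the higher floor, 57.9% with the offset and 38.9% with no floor. Of 228 values of single members under the alternatives, 226 moved by less than the SD between probe sets of 0.38, and the others were Oas2 with the offset and Rsad2 over probe sets. Much of this count was fixed in advance. Dropping the floor, or raising lower signals to it, left these values unchanged, and no centring and the higher floor shifted all genes alike. The 20 members with 1 probe set above the floor cannot change with the median over probe sets. The count is therefore no measure of robustness. No paired analysis was possible because each group has 1 array. Members of low signal cannot be resolved on these arrays, and the spread between animals is unknown.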

Other observations

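Samhd1, an interferon-inducible nuclease that depletes nucleotides and was on the nucleic acid sensing list, had probe sets that contradicted each other, and it is named here after its values were seen. Its brightest probe set, 1418131_at, had signals of 87.2 in DEF/FOS and 107.2 in DEF/CT, a difference of -0.28, and 1434438_at read -0.22. Against these, 1420273_x_at had 119.9 and 22.1, a difference of 2.46, and 1420272_at had 16.5 and 69.4, a difference of -2.06.

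Members that neighbour each other in the assembly had these differences. Gbp2 and Gbp3, with 1 protein-coding gene between them, differed by -0.63 and -0.29, and Oasl1 and Oasl2, direct neighbours, by -0.12 and -0.05.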
